A study of Mus musculus with 10 samples.

Results

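The genes described are 37 transcripts of the astrocyte lineage, of 18444 genes measured in the newborn mouse brain. They were chosen by symbol and fall into 10 radial glia genes, 6 gliogenic regulators (transcription factors and transcriptional inhibitors of the glial programme) and 21 genes of maturing astrocytes. All 37 were in the table, and all had a mean of at least 10 normalised counts, the minimum for testing, with means from 157 to 19855. RNA-Seq of poly-A RNA was done on whole brain at postnatal day 3, with 1 library from each of 10 male mice of the C57BL/6N strain. Of the libraries, 5 (HT 1 to HT 5) came from mice heterozygous for *Arid1b* and 5 (WT 1 to WT 5) from wild-type mice. *Arid1b* encodes a subunit of the BAF chromatin remodelling complex. Per the study's methods, HT mice carried an inherited CRISPR/Cas9 edit at exon 5 in 1 allele, a deletion with a small insertion, which the study describes as truncating the protein. The mice were bred from heterozygous fathers and WT mothers of the same strain. No mouse was treated, and no cell type was purified. In such bulk tissue, fewer cells of a type and less RNA per cell cannot be told apart.

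Radial glia line the ventricles of the embryonic brain, where they divide to give neurons and later turn to making glia. Notch signalling acts through RBPJ on *Hes1* and *Hes5* to hold them in the progenitor state, and SOX9 together with the NFI factors turns on astrocyte genes. In the first postnatal weeks most remaining radial glia leave the ventricle and become astrocytes, so that transcripts of both states are present in a whole brain of this age. BAF complexes are known to act in neural progenitors. The comparison was whether either state, or the balance between them, differed in HT brains.

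Promoters of *Nes*, *Hes5*, *Nfia*, *Id4* and *Acsbg1* are shown before the comparisons, with the letters of RBPJ and NFI motifs marked. Where a gene has several promoters, only the first listed is shown. Those of *Vim*, *Aldh1l1* and *Slc1a2*, which are also given by library below, are not shown. Each is the RefSeq sequence (GRCm38.p6) of up to 250 bases before the transcription start, printed 5′ to 3′ on the gene's strand. Capitals mark the RBPJ core TGGGAA and the NFI half-site TTGGC, or their reverse complements TTCCCA and GCCAA. No 2 matches overlapped in these sequences. The *Nes* stretch, chr3:87970843-87971077 (plus strand, 235 bases, cut where an annotated exon begins), belongs to the gene of nestin, a filament protein of progenitors:
Nes: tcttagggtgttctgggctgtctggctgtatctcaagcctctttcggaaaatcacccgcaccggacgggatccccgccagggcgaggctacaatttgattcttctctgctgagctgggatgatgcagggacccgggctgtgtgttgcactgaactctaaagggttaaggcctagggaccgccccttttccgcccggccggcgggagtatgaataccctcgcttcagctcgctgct
The *Hes5* promoter, chr4:154960673-154960922 (plus strand), is that of a Notch target gene:
Hes5: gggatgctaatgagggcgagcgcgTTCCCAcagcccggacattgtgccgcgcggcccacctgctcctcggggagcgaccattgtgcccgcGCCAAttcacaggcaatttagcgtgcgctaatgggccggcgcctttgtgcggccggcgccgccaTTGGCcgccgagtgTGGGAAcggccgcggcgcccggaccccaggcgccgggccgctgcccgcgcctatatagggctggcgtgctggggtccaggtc
The *Nfia* promoter, chr4:97581693-97581942 (plus strand), precedes a RefSeq start that lies upstream of the GENCODE M21 start of the gene at position 97772734:
Nfia: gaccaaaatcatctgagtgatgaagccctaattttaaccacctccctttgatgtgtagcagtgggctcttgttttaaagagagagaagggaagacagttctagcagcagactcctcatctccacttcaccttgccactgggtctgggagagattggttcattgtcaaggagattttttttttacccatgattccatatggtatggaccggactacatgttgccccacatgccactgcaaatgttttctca
The *Id4* promoter, chr13:48260866-48261115 (plus strand), belongs to an inhibitor of basic helix-loop-helix factors:
Id4: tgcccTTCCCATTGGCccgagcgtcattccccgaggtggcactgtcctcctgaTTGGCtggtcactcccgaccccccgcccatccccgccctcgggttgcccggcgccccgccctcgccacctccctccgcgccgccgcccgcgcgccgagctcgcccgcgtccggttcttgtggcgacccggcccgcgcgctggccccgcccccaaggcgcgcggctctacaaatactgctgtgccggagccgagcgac
The *Acsbg1* promoter, chr9:54661886-54662135 (minus strand), belongs to a long-chain acyl-CoA synthetase of astrocytes:
Acsbg1: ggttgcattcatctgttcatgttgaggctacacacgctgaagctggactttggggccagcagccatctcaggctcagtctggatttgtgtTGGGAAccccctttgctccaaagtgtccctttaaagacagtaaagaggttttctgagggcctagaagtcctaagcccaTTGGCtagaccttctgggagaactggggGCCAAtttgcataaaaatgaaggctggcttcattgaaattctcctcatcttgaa

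The *Hes5* stretch held 2 RBPJ matches, the nearer 82 to 77 bases before the start, and 2 NFI matches. *Id4* and *Acsbg1* each held 1 RBPJ and 2 NFI matches, and the *Nes* and *Nfia* stretches held neither motif. Of the 37 genes, 31 had an entry in the promoter table, with 43 promoters between them. The RBPJ core was found in 14 of these 43 (32.6%) and in 21.6% of all 32851 promoters. The NFI half-site was found in 22 of 43 (51.2%) and in 41.5% of all promoters. Both motifs are short and common, and a match describes letters, not a binding site.

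The libraries held between 27.2 M and 29.03 M normalised counts each. *Arid1b* itself separated the groups, with 1505 to 2372 normalised counts in HT and 3108 to 3597 in WT. HT 4 stood apart from the other 9 libraries, and its median absolute log2 deviation over all genes was 0.209, against 0.0772 to 0.108 elsewhere. Its deviation followed transcript length over all genes (Spearman rho = -0.47, across 17008 genes, which are not independent). The comparisons were therefore also made without HT 4. HT 5 also differed in regional markers: it had the lowest cerebellar marker score of all libraries (-1.26, the mean log2 deviation from each gene's mean) and the highest *Hox* score (2.01). HT 4 had the lowest forebrain (-0.38) and neuronal (-0.21) marker scores of all libraries. Its cerebellar (0.63) and ependymal (0.44) marker scores were the highest. How these scores relate to the length pattern of HT 4 was not tested. No marker gene of another cell type was at 0 in all libraries.

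Transcripts of the radial glia genes and of the maturing astrocyte genes were both present in the postnatal brain. Which cells carried them was not measured. Per kilobase of the longest annotated transcript, *Fabp7*, the brain fatty acid-binding protein of radial glia, was the highest of the 37 at 17589 ± 2018 normalised counts (SD, n = 10). Next on the same scale came the lipid carrier gene *Apoe* at 8771 ± 1472, the secreted matricellular gene *Sparcl1* at 6149 ± 436 and the glutamine synthetase gene *Glul* at 3279 ± 148. The lowest were *Hes1* at 107 ± 14.6, the gap junction gene *Gjb6* at 95.3 ± 23.8 and the claudin gene *Cldn10* at 82.3 ± 17.2, and the SDs of these neighbours overlap. The defining astrocyte gene *Gfap* stood at 878 ± 119 and *Aqp4*, the water channel of astrocyte endfeet, at 607 ± 85.7 per kilobase. The 37 genes were about as variable between mice as other genes. Their median coefficient of variation in WT was 8.48% (range 2.08% to 18.7%), against 8.40% over all genes tested.

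**Figure D1:**
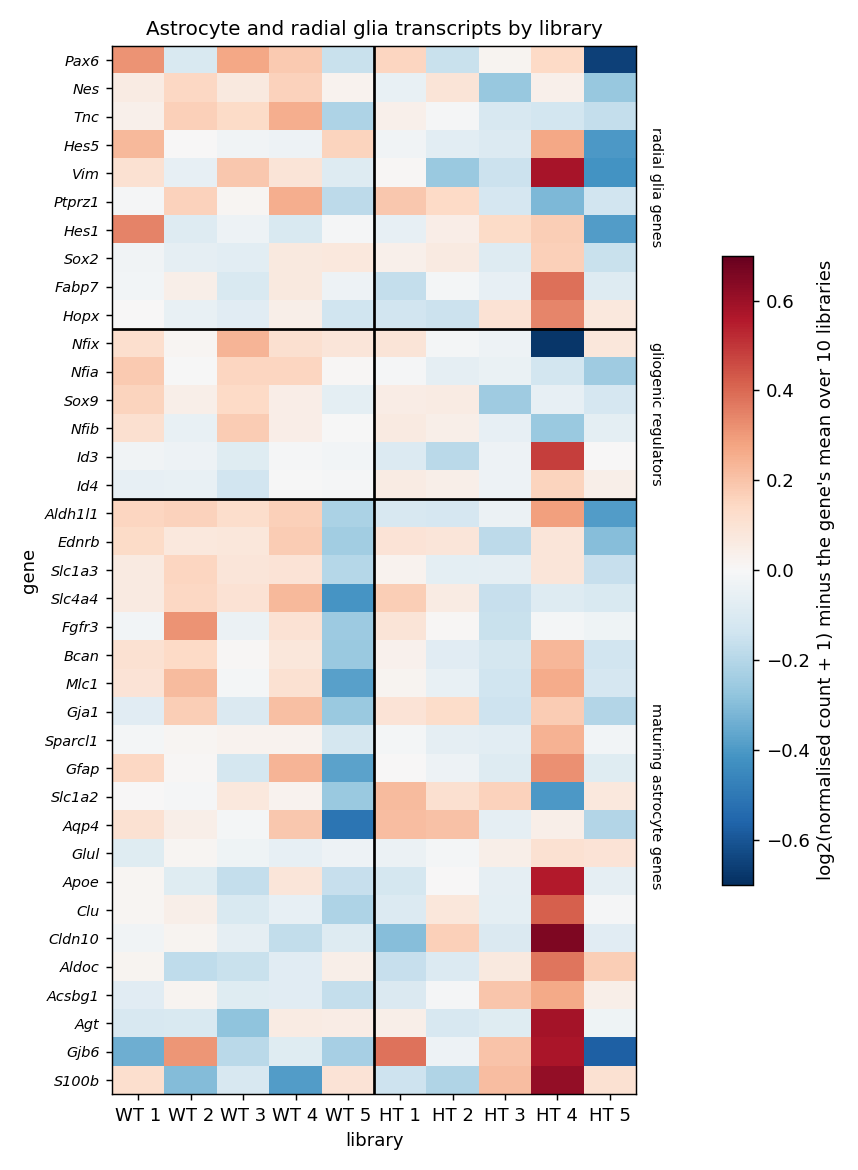
Log2 deviation of each gene (vertical, grouped by role and ordered by log2 fold change) from its own mean over 10 libraries, by library (horizontal). Red is above and blue below the mean, and colour ends at ±0.7. HT 4 was the highest library for 21 of the 37 genes, WT 5 the lowest for 12 and HT 5 the lowest for 10.

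In the comparison of HT with WT, none of the 37 genes passed the test (limma with Benjamini-Hochberg adjustment over 17020 genes, threshold 0.05). The background was also 0 genes (0.0%), and the smallest adjusted p of a member was 0.9997. *Arid1b* itself did not pass with all libraries (log2 fold change -0.68 ± 0.11, limma adjusted p = 0.390), although its HT and WT values did not overlap. Without HT 4, *Arid1b* passed (-0.57, limma adjusted p = 0.00025). At an unadjusted limma p under 0.05, 2 members were lower in HT (*Nes* and *Nfia*), against 1.93% of all genes tested, and 2 were higher (*Id4* and *Acsbg1*), against 1.47%. For 1 member, *Nfia*, no HT library reached the lowest WT library, against 0.347% of all genes in that direction. None was above all WT libraries, against 0.282%. Of the 37 genes, again none passed without HT 4, against 0.0118% of all genes, and the smallest adjusted p of a member was 0.446. At an unadjusted p under 0.05, 5 were then lower (*Nes*, *Nfia*, *Vim*, *Hes5* and *Aldh1l1*), against 3.71% of all genes, and 1 was higher (*Slc1a2*), against 4.69%. Without HT 4, *Nfia* was still the single member below all WT libraries (background 1.21%) and none was above them (1.75%). The 95% intervals of the 37 log2 fold changes reached from -0.53 (*Pax6*) to 0.63 (*Gjb6*), and for 3 genes the whole interval was within 0.2 of no change.

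Radial glia genes leaned lower in HT, and this was a small shift. Of the 10, 7 had a log2 fold change below 0, against 53.6% of all genes tested. The median was -0.096, against -0.0074 over all genes tested. Without HT 4, 9 of 10 were below 0, against 50.4% of all genes. The median was then -0.11, against -0.00081 over all genes. Without HT 5 the median was -0.026. No test was made of the group as a whole. Radial glia scores, the mean log2 deviation over the 10 genes, were -0.003, -0.032, -0.064, 0.165 and -0.261 in HT 1 to HT 5, and 0.104, 0.014, 0.036, 0.098 and -0.057 in WT 1 to WT 5. The 2 groups overlapped, and HT held both the highest library (HT 4) and the lowest (HT 5).

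*Nes* (ENSMUSG00000004891), which encodes the intermediate filament nestin, had 1638, 1811, 1416, 1746 and 1412 normalised counts in HT 1 to HT 5. In WT 1 to WT 5 it had 1768, 1881, 1781, 1902 and 1731. HT 1, HT 3 and HT 5 lay below all WT mice, while HT 2 and HT 4 lay within the WT range. The log2 fold change was -0.18 ± 0.074 (SE), with an unadjusted limma p of 0.0287 and an adjusted p of 0.9997. Without HT 4 it was -0.21 ± 0.069, with an adjusted p of 0.446. *Vim* (ENSMUSG00000026728, chr2:13573927-13582826), which encodes vimentin, the partner filament of nestin, showed how much 1 library could weigh. Its counts were 3992, 3323, 3581, 5928 and 2973 in HT 1 to HT 5 and 4277, 3823, 4533, 4237 and 3729 in WT 1 to WT 5. HT 4 was the highest of all 10 libraries, HT 1 lay within the WT range, and the other 3 HT libraries lay below every WT library. The log2 fold change of *Vim* moved from -0.097 ± 0.15 to -0.25 ± 0.081 when HT 4 was left out (limma adjusted p = 0.458), and to -0.0043 when HT 5 was left out instead.

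*Hes5* (ENSMUSG00000048001), the Notch effector whose promoter is shown above, had 412, 398, 393, 505 and 317 normalised counts in HT 1 to HT 5. In WT 1 to WT 5 it had 492, 419, 413, 408 and 467. HT 4 was again the highest library and HT 5 the lowest, and HT 1 lay within the WT range. Over all 10 libraries its log2 fold change was -0.13 ± 0.11, and leaving out HT 4 gave -0.21 ± 0.091 (limma adjusted p = 0.562). Leaving out HT 5 instead gave -0.047. Of its exon bases, 31.8% overlap a gene on the opposite strand, and whether the authors' counting used strand is not stated. Its relative *Hes1* had a log2 fold change of -0.04 ± 0.13 (-0.088 without HT 4 and 0.053 without HT 5), with 118 to 176 counts in HT and 144 to 198 in WT.

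The remaining radial glia genes overlapped between groups. *Pax6*, a transcription factor of dorsal progenitors and also of cerebellar granule cells, had 453 to 791 counts in HT and 641 to 887 in WT. Its log2 fold change was -0.20 ± 0.15 (-0.26 without HT 4 and -0.063 without HT 5), and its lowest library was HT 5, which also had the lowest cerebellar marker score. The part of cerebellar tissue in this value was not tested. *Tnc*, which encodes the extracellular matrix protein tenascin-C, had a log2 fold change of -0.15 ± 0.079, and *Ptprz1*, a receptor phosphatase of radial glia and oligodendrocyte precursors, -0.096 ± 0.10. The progenitor factor gene *Sox2* was at 0.0073 ± 0.065, *Fabp7* at 0.021 ± 0.087 and the outer radial glia gene *Hopx*, of whose exon bases 27.2% overlap an antisense gene, at 0.092 ± 0.094. Without HT 4 these values were -0.14 (*Tnc*), -0.029 (*Ptprz1*), -0.033 (*Sox2*), -0.073 (*Fabp7*) and 0.017 (*Hopx*).

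**Figure D2:**
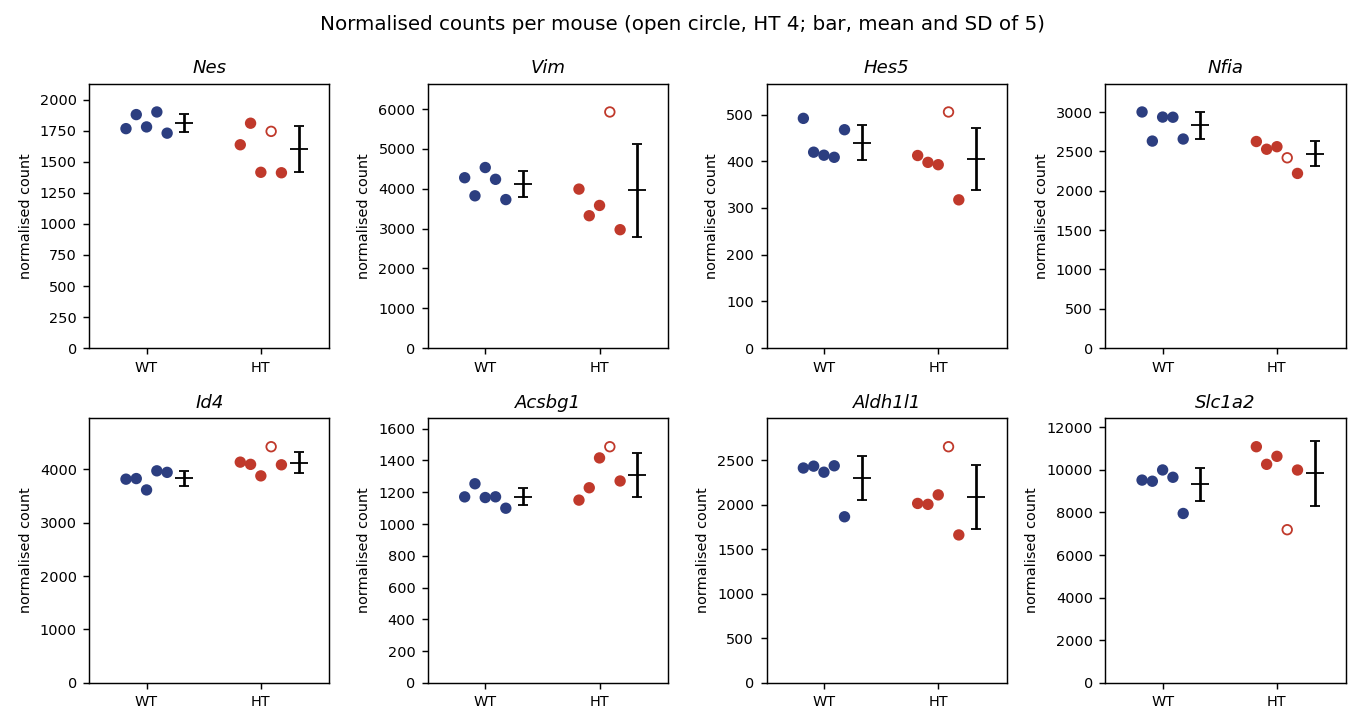
Normalised counts per mouse (vertical, from 0) for the 8 genes with an unadjusted limma p under 0.05 with all libraries or without HT 4. Points are mice, the open circle is HT 4, and bars are the mean and SD of 5. Only for *Nfia* do the groups not overlap (HT up to 2627, WT from 2632), and HT 4 is the highest library in *Vim*, *Hes5*, *Id4*, *Acsbg1* and *Aldh1l1* and the lowest in *Slc1a2*.

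Among the gliogenic regulators, the 3 nuclear factor I genes and *Sox9* were below 0 and the 2 *Id* genes above 0. *Nfia* (ENSMUSG00000028565), which encodes a factor that starts astrocyte formation, had 2627, 2528, 2561, 2420 and 2221 normalised counts in HT 1 to HT 5. In WT 1 to WT 5 it had 3002, 2632, 2937, 2935 and 2658. Every HT mouse lay below every WT mouse, by a margin of few counts between HT 1 and WT 2. The log2 fold change was -0.20 ± 0.060 (SE), an HT mean of 87.2% of WT, with an unadjusted limma p of 0.00576 and an adjusted p of 0.9997. By unadjusted p it ranked 54 of 17020 genes. Without HT 4 the log2 fold change was -0.19 ± 0.057, with an adjusted p of 0.446.

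The related genes *Nfib* and *Nfix* had log2 fold changes of -0.11 ± 0.066 and -0.23 ± 0.12, and *Nfib* was at -0.061 without HT 4. *Nfix* had 14315, 13285, 13100, 8363 and 14177 normalised counts in HT 1 to HT 5 and 13565 to 15840 in WT. HT 4 alone was far below the others, and without it the log2 fold change of *Nfix* was -0.084 ± 0.044. *Sox9*, which encodes a factor acting ahead of NFIA, was at -0.13 ± 0.071 with all libraries and -0.13 ± 0.073 without HT 4, with 673 to 831 counts in HT and 763 to 890 in WT.

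*Id4* (ENSMUSG00000021379), a target of BMP signalling, leaned the other way. It had 4134, 4092, 3877, 4423 and 4084 normalised counts in HT 1 to HT 5 and 3815, 3826, 3613, 3971 and 3942 in WT 1 to WT 5. HT 1, HT 2, HT 4 and HT 5 lay above every WT library, and HT 3 lay within the WT range. The log2 fold change was 0.10 ± 0.048, with an unadjusted limma p of 0.0496 and an adjusted p of 0.9997, and 0.078 ± 0.039 without HT 4. *Id3*, its relative, was at 0.068 ± 0.10 with all libraries and -0.045 ± 0.055 without HT 4. The median over the 6 regulators was -0.12 with all libraries and -0.072 without HT 4. Their scores were 0.027, -0.022, -0.076, -0.081 and -0.053 in HT 1 to HT 5 and 0.082, -0.015, 0.080, 0.058 and -0.001 in WT 1 to WT 5. HT 1 lay within the WT range, and the other 4 HT libraries lay below it, HT 2 by little.

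Genes of maturing astrocytes leaned slightly higher in HT with all libraries, but not without HT 4 and hardly without WT 5. Of the 21, 14 (66.7%) were above 0, against 46.4% of all genes tested, with a median log2 fold change of 0.066. Without HT 4, 10 of 21 (47.6%) were above 0, near the 49.6% of all genes, with a median of -0.013. Without WT 5 the median was 0.0044. HT 4 was the highest library for 14 of the 21, and WT 5 the lowest for 11. Scores over the 21 genes were 0.014, -0.002, -0.032, 0.255 and -0.096 in HT 1 to HT 5 and 0.013, 0.055, -0.047, 0.040 and -0.20 in WT 1 to WT 5. The groups overlapped throughout, with HT 4 above and WT 5 below all other libraries.

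*Acsbg1* (ENSMUSG00000032281), whose product activates long-chain fatty acids, had 1150, 1228, 1416, 1487 and 1271 normalised counts in HT 1 to HT 5. In WT 1 to WT 5 it had 1171, 1253, 1167, 1171 and 1099. HT 3, HT 4 and HT 5 lay above every WT library, and HT 1 and HT 2 lay within the WT range. The log2 fold change was 0.16 ± 0.072, with an unadjusted limma p of 0.0490 and an adjusted p of 0.9997, and 0.11 ± 0.062 without HT 4. *Aldh1l1* (ENSMUSG00000030088, chr6:90486427-90600203), a folate enzyme gene used as a pan-astrocyte marker, had 2014, 2004, 2110, 2651 and 1661 counts in HT 1 to HT 5. In WT 1 to WT 5 it had 2412, 2433, 2365, 2437 and 1864. WT 1 to WT 4 lay close together, above every HT library but HT 4, while WT 5 lay among the HT libraries. Over all 10 libraries the log2 fold change of *Aldh1l1* was -0.15 ± 0.11, and leaving out HT 4 gave -0.24 ± 0.088 (limma adjusted p = 0.509). Leaving out HT 5 instead gave -0.071.

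The 2 glutamate transporter genes pointed in opposite directions. *Slc1a2* (ENSMUSG00000005089, chr2:102658659-102790784), which encodes GLT-1, the transporter that increases as astrocytes mature, had 11082, 10256, 10631, 7187 and 9988 normalised counts in HT 1 to HT 5. In WT 1 to WT 5 it had 9516, 9462, 9991, 9648 and 7949. HT 4 was the lowest of all libraries, HT 1 to HT 3 lay above every WT library, and HT 5 lay just within the WT range. Over all 10 libraries its log2 fold change was 0.066 ± 0.11, and leaving out HT 4 gave 0.17 ± 0.058 (limma adjusted p = 0.463). Leaving out WT 5 instead gave 0.010. *Slc1a3*, which encodes GLAST, the transporter already present in radial glia, was at -0.076 ± 0.068 with all libraries and -0.11 ± 0.063 without HT 4, with 9176 to 10874 counts in HT and 8937 to 11378 in WT. *Glul*, whose product turns the glutamate taken up into glutamine, was at 0.077 ± 0.044 (0.060 without HT 4), with 8904 to 9864 counts in HT and 8635 to 9218 in WT. It shares 19.7% of its 31-base words with other genes, so its reads could have been divided between copies.

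For the 7 structural and channel genes, every interval included 0. *Gfap*, the astrocyte filament gene, was at a log2 fold change of 0.044 (95% interval -0.20 to 0.28) and *Aqp4* at 0.076 (-0.19 to 0.34). The gap junction gene *Gja1* was at 0.021 (-0.20 to 0.24) and *Gjb6*, its partner in mature astrocytes, at 0.22 (-0.20 to 0.63). *Mlc1*, a membrane protein gene of perivascular endfeet, was at -0.010 (-0.24 to 0.22), the bicarbonate transporter gene *Slc4a4* at -0.050 (-0.28 to 0.18) and *Cldn10* at 0.13 (-0.20 to 0.46). Without HT 4 the values were -0.029 (*Gfap*), 0.075 (*Aqp4*), -0.020 (*Gja1*), 0.10 (*Gjb6*), -0.077 (*Mlc1*), -0.034 (*Slc4a4*) and -0.013 (*Cldn10*). With 5 mice a group, the differences of these 7 genes were not told apart from 0. Values up to the ends of the intervals are compatible with the data.

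Several other genes of maturing astrocytes encode secreted, metabolic or calcium-binding proteins. With all libraries, *Apoe* was at 0.12 ± 0.11, *Clu*, the clusterin gene, at 0.13 ± 0.090, *Agt*, the angiotensinogen gene, at 0.16 ± 0.12, *Aldoc*, a glycolytic enzyme gene also found in Purkinje cells, at 0.14 ± 0.091 and *S100b*, a calcium-binding protein gene, at 0.24 ± 0.15. HT 4 was the highest library for all 5. Without HT 4 the values were 0.0012 (*Apoe*), 0.042 (*Clu*), 0.030 (*Agt*), 0.067 (*Aldoc*) and 0.11 (*S100b*). Of the remaining genes, *Sparcl1* was at 0.031 ± 0.061, the proteoglycan gene *Bcan* at -0.029 ± 0.086, the growth factor receptor gene *Fgfr3* at -0.039 ± 0.090 and the endothelin receptor gene *Ednrb* at -0.087 ± 0.096. Without HT 4 these were -0.026 (*Sparcl1*), -0.090 (*Bcan*), -0.040 (*Fgfr3*) and -0.12 (*Ednrb*).

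**Figure D3:**
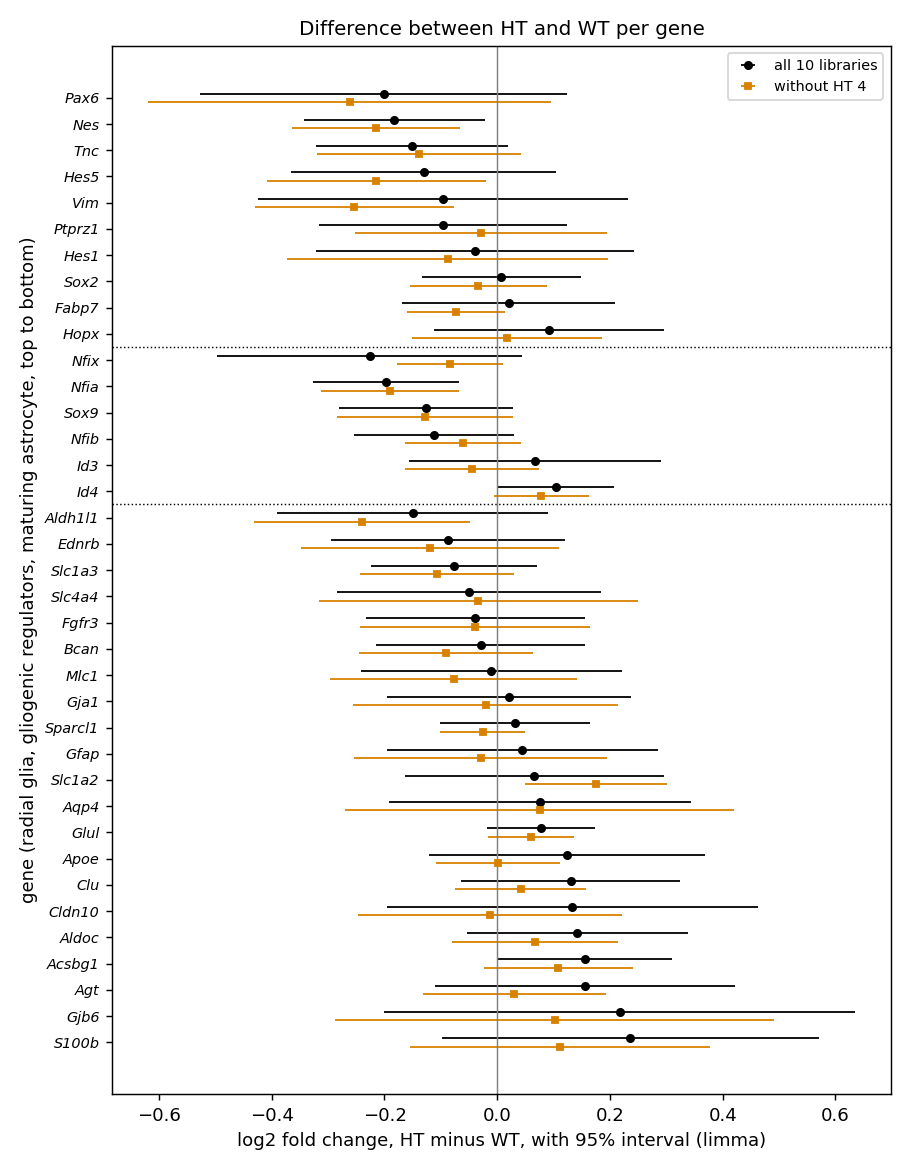
Log2 fold change of HT against WT (horizontal, limma, with 95% intervals) for each of the 37 genes (vertical, by role). Black circles use all 10 libraries and orange squares leave out HT 4. The interval excludes 0 for *Nes*, *Nfia*, *Id4* and *Acsbg1* with all libraries and for *Nes*, *Hes5*, *Vim*, *Nfia*, *Aldh1l1* and *Slc1a2* without HT 4, before adjustment over genes.

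The weight of HT 4 in these genes followed transcript length. Over the 37, the Spearman correlation of its log2 deviation with the length of the longest transcript was -0.83, a description across genes of 1 library. Its median deviation was 0.37 for the 19 genes with a transcript under 3 kb and -0.13 for the 9 genes of at least 5 kb. The short genes *Apoe*, *S100b*, *Agt* and *Cldn10* were at their highest in HT 4, and the long genes *Slc1a2*, *Nfib*, *Ptprz1* and *Nfix* at their lowest. Leaving HT 4 out changed the sign of the log2 fold change in 7 of the 37 genes. What set HT 4 apart was not tested.

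**Figure D4:**
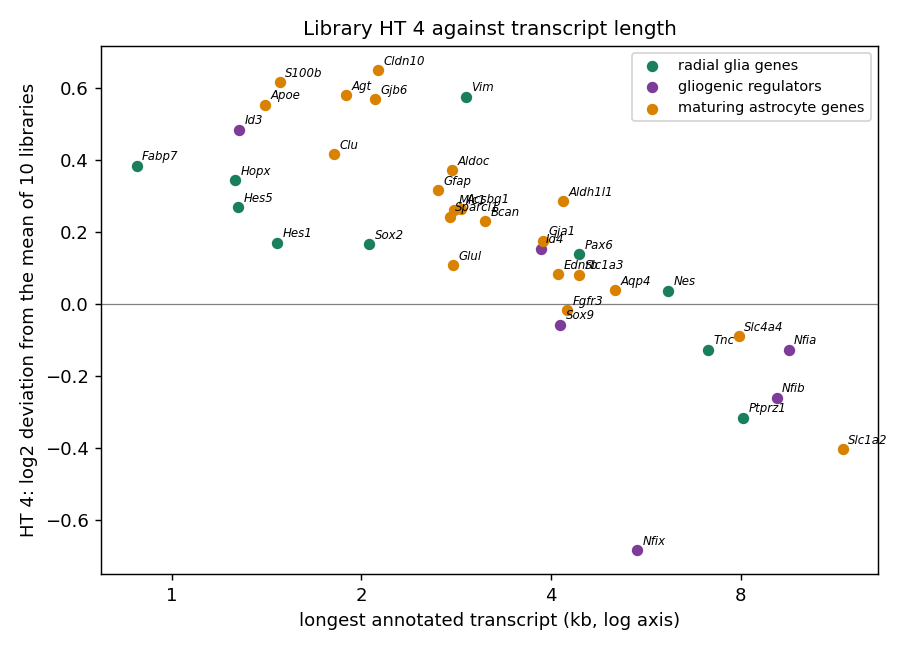
Log2 deviation of HT 4 from the mean of 10 libraries (vertical) against the longest annotated transcript in kilobases (horizontal, log axis) for the 37 genes, coloured by role. Genes under 3 kb have a median of 0.37 and those of at least 5 kb a median of -0.13.

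The balance of the 2 gene groups was described by the difference between the maturing astrocyte and the radial glia score within each library. In this difference a shift shared by both gene groups cancels. It does not show which cells carried the transcripts. The difference was 0.017, 0.030, 0.032, 0.090 and 0.165 in HT 1 to HT 5, and -0.091, 0.041, -0.083, -0.058 and -0.144 in WT 1 to WT 5. All 5 HT values were above 0, 4 of 5 WT values were below 0, and WT 2 lay within the HT range. Deviations were taken from the mean of these same libraries, so 0 is only the midpoint between HT and WT. The HT and WT means therefore mirror each other by construction. The means were 0.067 ± 0.062 (SD, n = 5) in HT and -0.067 ± 0.068 in WT, and without HT 4 the HT mean was 0.061 ± 0.070. The medians of the log2 fold changes of the 2 groups differed by 0.16, by 0.10 without HT 4 and by 0.097 without HT 5. These values carry no test, because the genes were chosen with earlier results of these data known.

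**Figure D5:**
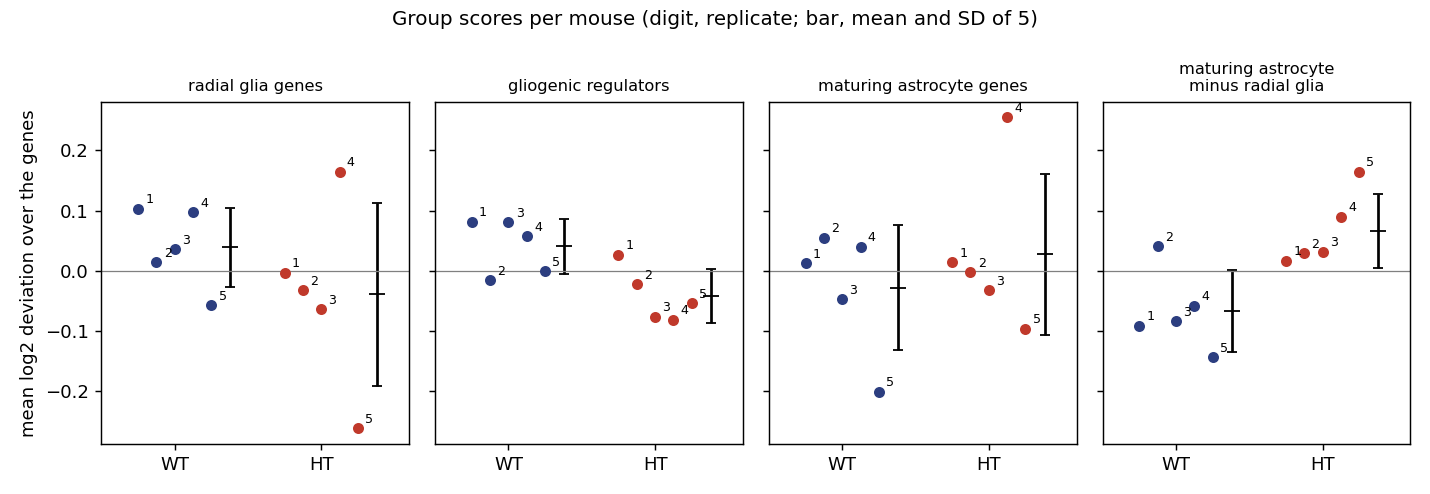
Mean log2 deviation over the genes of each role (vertical) per mouse, with the difference between the maturing astrocyte and radial glia scores in the last panel. Digits are replicate numbers, and bars are the mean and SD of 5. In the last panel the HT mice sit between 0.017 and 0.165 and the WT mice between -0.144 and 0.041.

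Genes of the same pathways outside the 37 were read from wider lists, and none passed the test with all libraries. Of 18 further radial glia genes, 15 were below 0 in HT, against 53.6% of all genes tested. Their median log2 fold change was -0.077, and -0.093 without HT 4. Without HT 4 also 15 were below 0, against 50.4% of all genes. At an unadjusted limma p under 0.05, 5 were lower without HT 4, against 3.71% of all genes. With all libraries 2 were lower, against 1.93%. These were the progenitor factor gene *Sox1* at -0.12 ± 0.049 and *Zfp36l1*, an mRNA decay factor gene, at -0.24 ± 0.10. On the higher side, *Gas1*, a Hedgehog co-receptor gene, was at 0.13 ± 0.10 and *Fam107a*, an outer radial glia gene, at 0.12 ± 0.099. Without HT 4 the values were -0.11 (*Sox1*), -0.31 (*Zfp36l1*), 0.056 (*Gas1*) and 0.13 (*Fam107a*). Of 30 further astrocyte genes, 22 (73.3%) were above 0 (median 0.063), against 46.4% of all genes tested. Without HT 4, 16 (53.3%) were above 0 (median 0.010), against 49.6% of all genes. The neurotensin receptor gene *Ntsr2* was at 0.34 ± 0.12, with an unadjusted limma p of 0.0159 and an adjusted p of 0.9997, and with 306 to 451 counts in HT and 254 to 340 in WT. *Ndrg2* was at 0.15 ± 0.072, while the BMP antagonist gene *Chrdl1* was at -0.27 ± 0.15 and the zinc transporter gene *Slc39a12* at -0.16 ± 0.14. Without HT 4 the values were 0.25 (*Ntsr2*), 0.069 (*Ndrg2*), -0.17 (*Chrdl1*) and -0.22 (*Slc39a12*).

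Of 24 gliogenic signalling genes (Notch, BMP, JAK-STAT, FGF and their effectors), 17 were below 0, against 53.6% of all genes tested. Without HT 4, 18 were below 0, against 50.4%. The median was -0.050, and -0.040 without HT 4. The Notch ligand gene *Dll1* had 517, 415, 374, 424 and 405 normalised counts in HT 1 to HT 5 and 487, 564, 594, 484 and 447 in WT 1 to WT 5. HT 2 to HT 5 lay below every WT library, and HT 1 lay within the WT range. Its log2 fold change was -0.27 ± 0.10, with an unadjusted limma p of 0.0186 and an adjusted p of 0.9997. The receptor gene *Notch1* was at -0.18 ± 0.088, the ligand gene *Bmp4* at 0.39 ± 0.24 and its effector gene *Smad1* at 0.041 ± 0.049. Without HT 4 the values were -0.27 (*Dll1*), -0.16 (*Notch1*), 0.28 (*Bmp4*) and 0.031 (*Smad1*).

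Markers of other cells and regions were read beside these genes, and their part in the values above was not tested. No marker gene passed the test with all libraries (limma with Benjamini-Hochberg adjustment), and the summed levels overlapped between the groups for every list except that of the choroid plexus. Over all genes tested, 53.6% were below 0 with all libraries and 50.4% without HT 4. All 8 choroid plexus markers were below 0, also without HT 4. At an unadjusted limma p under 0.05, 4 were lower in HT, against 1.93% of all genes. Without HT 4, 6 were lower at that limit, against 3.71%. Their summed level was 7068 to 10005 in HT and 10641 to 14333 in WT. All 10 microglial markers were below 0, with sums of 2005 to 3035 in HT and 2150 to 3617 in WT, and 6 of 8 meningeal markers were below 0 (8 of 8 without HT 4), with sums of 13820 to 23010 and 14422 to 41575. The choroid plexus, microglia and meninges express some of the same genes, among them *Apoe*, *Clu* and *Vim*. Of 10 oligodendrocyte lineage markers, 9 were above 0 (6 without HT 4), with sums of 12667 to 18494 in HT and 12619 to 15007 in WT. Ependymal markers, which share *Aqp4* and *Vim* with the astrocyte lineage, were divided with 5 of 10 on each side of 0 (4 above and 6 below without HT 4) and sums of 1087 to 1424 in HT and 1005 to 1248 in WT. Neuronal markers summed to 207587 to 243429 in HT and 225180 to 234220 in WT, and 4 of 8 were on each side, while 7 of 8 were above 0 without HT 4. Of the forebrain markers, 9 of 10 were below 0 with all libraries and 5 of 10 without HT 4, with sums of 24741 to 36033 in HT and 30538 to 35573 in WT. Cerebellar markers summed to 7315 to 12767 in HT and 9180 to 11402 in WT, and 7 of the 9 tested were below 0 (9 of 9 without HT 4). Endothelial markers summed to 5573 to 6547 in HT and 5868 to 6380 in WT, and 6 of 8 were below 0 (5 without HT 4). *Hox* markers of the hindbrain summed to 153 to 1727 in HT and 53.7 to 862 in WT, and 8 of 10 were above 0 (7 without HT 4).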

How the data were processed

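Whole-brain mRNA of 5 HT and 5 WT mice was analysed, 1 library per mouse, grouped by the sample labels. Per the study's methods and labels, the authors quantified reads of a stranded kit with Salmon 1.1.0 (GC bias correction) on GRCm38 and normalised gene estimates with DESeq2 1.30.1. The deposited values are a signal, non-integer counts divided by size factors. Whole reads could not be recovered, so no count model was run. Which annotation was used, and how low genes were removed, is not given in the sources used here.

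Of 18444 genes, 18431 matched GENCODE M21, the source of symbols, positions and transcript lengths. Values were analysed as log2(value + 1), which understates changes of low genes. The 17020 genes with a mean of at least 10 were compared by limma-trend with a robust step (limma 3.58.1, R 4.3.3, two-sided, no covariate, Benjamini-Hochberg adjustment, threshold 0.05). The workflow was run on simulated data with independent noise per gene and planted changes larger than those of the 37 members. That simulation held no shift of a whole library like that of HT 4, so it does not show how small differences fare here. Members and lists were chosen with earlier results of these data known. All 37 members were named, with the 2 genes of smallest unadjusted p in each direction of each further list. Members with an unadjusted p under 0.05, or without overlap, were given by library. Alternatives covered the pseudocount, filter, scaling, sample weights, trend step, transcript length and GC, each left-out library and the replicate number as a block. Nothing in the labels ties replicate numbers to a litter or day. Counting noise weighs most on the lowest members, and its part was not tested. The SEs were estimated from the spread between mice.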

Additional observations from a re-analysis of the deposited data

Results flagged for a closer look

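In 14 of 80 groups of 5 libraries checked, 1 library lay far from the others, where chance gives about 1 in 20, or 4. That number holds for independent checks, and these were read in the same libraries and are not independent. The measure is the gap to the nearest other library divided by the group's range, with a limit of 0.71. HT 4 was that library in 8 groups. It was the highest in *Fabp7* (ratio 0.757), *Id3* (0.759), *Gfap* (0.797), *Apoe* (0.846), *Sparcl1* (0.824) and *Agt* (0.821), and the lowest in *Nfix* (0.796) and *Slc1a2* (0.719). *Apoe*, for example, had 17942 normalised counts in HT 4 and 11219 to 12253 in the other HT mice.

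Among WT mice, WT 5 was the lowest for *Aldh1l1* (0.874), *Slc1a2* (0.741), *Slc1a3* (0.732), *Sparcl1* (0.750) and *Ednrb* (0.727), all genes of maturing astrocytes. *Aldh1l1* had 1864 normalised counts in WT 5 and 2365 to 2437 in the other WT mice. WT 1 was the highest for *Hes1* (0.808), with 198 normalised counts against 144 to 155 in the others.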

How the results depend on the processing

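None of the 37 genes passed the adjusted threshold in any of 22 alternatives, of which the joint omissions of HT 4 with HT 5 and of HT 4 with WT 5 were chosen after seeing the data. Over the other 20 alternatives, the smallest adjusted p of a member was 0.122 (*Nfia*, length and GC trend removed and HT 4 left out). Over all genes, 0 passed (limma; 329 lower and 251 higher at an unadjusted p under 0.05), against 2 with sample weights, 1 with the length and GC trend removed, 2 with that trend removed and HT 4 left out, 2 with HT 4 and HT 5 left out and 2 with HT 4 and WT 5 left out. Leaving out single libraries gave 0 to 2, the 2 without HT 4. The radial glia median ranged from -0.14 to -0.026 (the latter without HT 5) and stayed below 0. The median of maturing astrocyte genes ranged from -0.043 (HT 4 and WT 5 left out) to 0.080, and was 0.0044 without WT 5. The regulator median ranged from -0.15 to -0.072 over single left-out libraries, the latter without HT 4. The difference between the astrocyte and radial glia medians was 0.16, at its lowest 0.097 with 1 library left out (HT 5), up to 0.17, and 0.085 with HT 4 and HT 5 left out. The cause of these shifts was not tested.

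Over the 20 alternatives run for single genes, the sign of the log2 fold change held in each for 24 genes and turned in at least 1 for 13. With sample weights it turned for *Fabp7* (-0.047), *Sox2* (-0.021), *Id3* (-0.030), *Gfap* (-0.050), *Gja1* (-0.022) and *Sparcl1* (-0.027). With the length and GC trend removed it turned for *Fabp7* (-0.0051) and *Sox2* (-0.0061), and with HT 4 also left out for *Fabp7* (-0.044), *Sox2* (-0.011), *Id3* (-0.0064), *Gfap* (-0.0061), *Gja1* (-0.024) and *Sparcl1* (-0.013). Quantile normalisation turned *Mlc1* (0.00097). Over single left-out libraries the ranges crossing 0 were -0.073 to 0.065 (*Fabp7*), -0.088 to 0.053 (*Hes1*), -0.033 to 0.047 (*Sox2*), -0.045 to 0.12 (*Id3*), -0.043 to 0.11 (*Gfap*), -0.043 to 0.14 (*Aqp4*), -0.041 to 0.077 (*Gja1*), -0.026 to 0.053 (*Sparcl1*), -0.16 to 0.00043 (*Slc4a4*), -0.11 to 0.034 (*Fgfr3*), -0.11 to 0.044 (*Mlc1*), -0.013 to 0.23 (*Cldn10*) and -0.097 to 0.0020 (*Bcan*).

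With the replicate number as a block, 0 genes and 0 members passed. The fit without the block had also called 0, so there was no call for the block to remove. Same-numbered HT and WT libraries correlated at 0.091, 0.084, 0.082, -0.10 and 0.093 in their deviations, and 4 of 5 HT libraries correlated best with their own number, a hint from the data and not from the design.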
